A study of Mus musculus with 4 samples.

Results

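A set of 10 genes that let white blood cells stick to vessel walls was examined in mouse cortex 24 h after permanent middle cerebral artery occlusion (MCAO), on arrays of P4htm-/- and WT mice. They were taken as a named set, and every probe set that the array annotation assigns to 1 of them alone was used, which gave 24 of the 45101 probe sets on the array and 10 of 18194 genes. The set holds the endothelial ligands *Icam1*, *Icam2* and *Vcam1*, the selectins *Sele* and *Selp*, the selectin ligand *Selplg*, and the integrin subunits *Itga4*, *Itgal*, *Itgb1* and *Itgb2*. The 4 conditions were P4htm-/- (KO) ipsilateral, KO contralateral, WT ipsilateral and WT contralateral cortex. All mice were 3 months old, of strain C57BL/6J, and had the left artery occluded, so the contralateral side is tissue of an operated animal and not of a sham or untreated one. Whole cortex was taken after the vessels had been flushed with heparinized saline, and RNA of 4 mice was pooled for the 1 array of each condition, the 2 sides of a genotype coming from the same mice. The P4htm-/- mice, a constitutive knockout line backcrossed to C57BL/6, lack the transmembrane prolyl 4-hydroxylase P4H-TM in all cells and not in a chosen cell type.

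Leukocytes leave the blood in steps. They are first slowed on the vessel wall by selectins, which bind sugar-decorated proteins such as PSGL-1, the product of *Selplg*. They then stop when their integrins are switched on and grip ligands of the immunoglobulin family. LFA-1, built from the products of *Itgal* and *Itgb2*, grips ICAM-1 and ICAM-2, and VLA-4, built from the products of *Itga4* and *Itgb1*, grips VCAM-1. In resting brain vessels the selectins and ICAM-1 are known to be low, and tumor necrosis factor and interleukin-1 are known to raise *Icam1*, *Vcam1*, *Sele* and, in mice, *Selp* in endothelial cells.

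The promoters of the inducible endothelial genes *Icam1*, *Selp* and *Sele* are shown as background, with motifs chosen after the array values were seen. RefSeq promoter windows on GRCm38.p6 were at hand for 5 of the 10 members, *Icam1*, *Itga4*, *Itgb1*, *Sele* and *Selp*, and the 250 bases before the annotated start site were read. Capitals mark matches on either strand to GGANNTTCC, a form of the NF-κB site, to TGANTCA, or to TATAAA, the TATA box. TGANTCA is the AP-1 site with its middle base, C or G in the consensus, left open. *Icam1* is at chr9:21015690-21015939 on the plus strand, *Selp* at chr1:164115014-164115263 on the plus strand and *Sele* at chr1:164047984-164048233 on the plus strand.
Icam1: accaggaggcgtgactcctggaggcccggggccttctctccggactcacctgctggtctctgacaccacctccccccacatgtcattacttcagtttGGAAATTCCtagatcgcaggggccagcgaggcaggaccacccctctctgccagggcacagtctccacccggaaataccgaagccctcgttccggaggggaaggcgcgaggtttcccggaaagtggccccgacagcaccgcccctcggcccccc
Selp: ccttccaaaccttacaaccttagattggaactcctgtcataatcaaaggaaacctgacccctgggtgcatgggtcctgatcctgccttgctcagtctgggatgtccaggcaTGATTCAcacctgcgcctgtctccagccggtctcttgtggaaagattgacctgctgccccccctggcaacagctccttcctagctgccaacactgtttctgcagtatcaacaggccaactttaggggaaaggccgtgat
Sele: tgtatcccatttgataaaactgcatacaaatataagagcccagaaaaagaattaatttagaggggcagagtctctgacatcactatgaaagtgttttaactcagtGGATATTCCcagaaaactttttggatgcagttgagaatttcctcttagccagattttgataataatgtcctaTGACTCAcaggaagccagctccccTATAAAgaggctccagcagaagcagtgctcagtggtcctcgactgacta
GGANNTTCC matched in *Icam1*, at positions -153 to -145 from the start, and in *Sele*, at positions -145 to -137, and 3.59% of 32851 RefSeq windows of the same length hold it. TGANTCA, which 6.75% of the windows hold, matched in *Selp* and *Sele*, and TATAAA, held by 12.4%, matched in *Sele* alone. The longer NF-κB consensus, which can overlap GGANNTTCC, is held by 5.0% of the windows and by 0 of the 5 member windows. The windows of *Itga4* and *Itgb1* held none of these 4 motifs. A match is a run of letters and no record of binding.

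Levels are given as deposited, on the log2 scale after RMA, an array normalization that gives every array the same spread of values. A value counted as above background when it exceeded 4.78, the level under which 95% of the values of 83 olfactory, vomeronasal and taste receptor probe sets fell. Where a gene had several probe sets, the one with the highest mean over the arrays stood for it. Levels were compared only within a probe set and never between genes. *P4htm* itself read 8.23 and 8.27 on the KO ipsilateral and contralateral arrays, against 10.02 and 10.03 on the WT arrays, and a second probe set was also lower in KO cortex. Whether these probe sets lie in the deleted stretch was not determined. Array medians ran between 5.53 and 5.55, and all 9 measured markers of cortical neurons were above background on every array. Having 1 array per condition leaves no replicate check, so no p-values are given and precision is limited by how few arrays there are. Over the receptor probe sets the SD of the difference between 2 arrays was 0.18 to 0.21, a measure of array scatter that does not hold the variation between mice. A gene is called past 1.5-fold if its log2 difference reached 0.585 and it was above background on 1 or both of the arrays compared. Whether a difference comes from more or fewer cells of a type or from more or less RNA per cell cannot be told apart in whole tissue.

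Of the 10 members, 7 were above background on all 4 arrays, *Selp* was above it on the ipsilateral arrays alone, and *Sele* and *Itgal* were above it on none. Of the 24 probe sets, 11 were above background on all arrays and 12 on none.

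**Figure D1:**
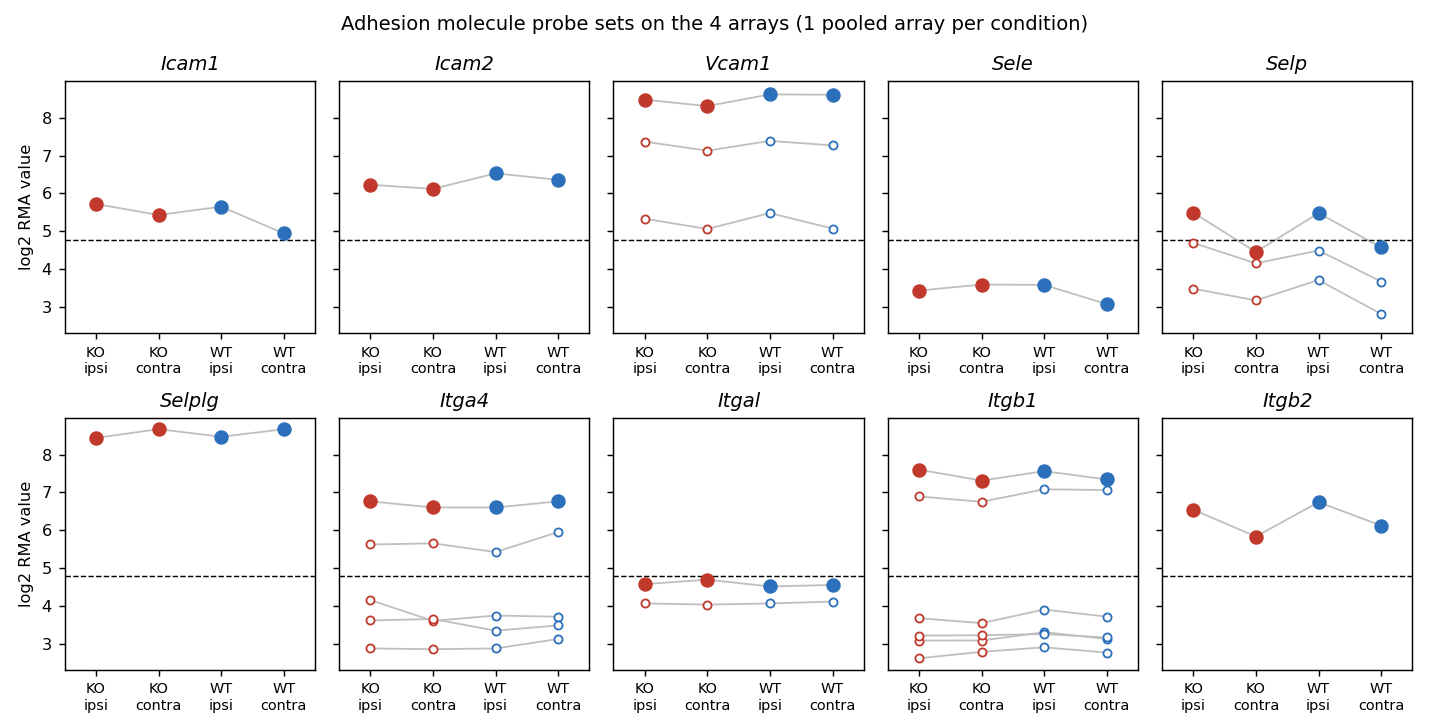
Log2 RMA value (vertical axis) of every probe set of the 10 genes on the 4 arrays, with KO in red and WT in blue, and 1 pooled array per condition. Large filled circles are the probe set that represents the gene, small open circles are its other probe sets, and the dashed line is the background of 4.78. *Selp*, *Icam1* and *Itgb2* sit higher on the ipsilateral arrays, and *Sele* and *Itgal* stay under the line.

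The first question was which of these genes differed between the injured and the opposite cortex in each genotype. *Selp* and *Itgb2* were higher past 1.5-fold in ipsilateral cortex of KO and of WT mice, *Icam1* was past it in WT cortex only, and none was lower past it. In KO cortex 2 of the 8 members that entered were higher, where 1.53% of 13309 genes were higher and 0.165% lower. In WT cortex it was 3 of 8 members, where 2.42% of 13320 genes were higher and 0.443% lower. The median over the 8 members was 0.23 in KO and 0.20 in WT cortex, and over all genes that entered it was -0.02 in both. Counted by probe set instead, 2 of 12 were higher in KO cortex, where 1.27% of all were higher and 0.186% lower, and 3 of 12 in WT cortex, where 2.13% were higher and 0.799% lower. In both genotypes at once 2 members were higher, as were 1.21% of the 13181 genes measured in both.

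*Selp* encodes P-selectin, which endothelial cells and platelets store in granules and move to their surface when activated. It read 5.49 in KO ipsilateral cortex and 4.45 in KO contralateral cortex, and 5.48 in WT ipsilateral cortex and 4.57 in WT contralateral cortex. Both ipsilateral values lay above background and above both contralateral values, which did not reach it. Set against background, *Selp* was therefore at least 0.71 higher in KO and at least 0.70 higher in WT cortex, or at least 1.64-fold and 1.62-fold. The values as measured differed by 1.04 and 0.91, sizes that rest on contralateral values not above background. The 2 other probe sets of *Selp* were not above background on any array, and they too read higher ipsilaterally. One read 4.69 and 4.15 on the KO ipsilateral and contralateral arrays and 4.49 and 3.67 on the WT arrays, and the other read 3.48 and 3.17, and 3.71 and 2.81. As a mean over its 3 probe sets *Selp* differed by 0.63 in KO and 0.88 in WT cortex, and with that mean it was no longer above background.

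*Itgb2* encodes CD18, the beta subunit that leukocyte integrins such as LFA-1 and Mac-1 share, and in brain it is also made by microglia. It read 6.54 in KO ipsilateral cortex and 5.83 in KO contralateral cortex, and 6.74 in WT ipsilateral cortex and 6.12 in WT contralateral cortex. Both ipsilateral values were above both contralateral ones. The differences were 0.71 in KO and 0.62 in WT cortex, or 1.64-fold and 1.54-fold, from the single probe set of the gene.

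*Icam1* encodes the inducible ligand of LFA-1 and Mac-1. It read 5.72 in KO ipsilateral cortex and 5.43 in KO contralateral cortex, and 5.65 in WT ipsilateral cortex and 4.94 in WT contralateral cortex. The 2 ipsilateral values were close, and the WT contralateral value was the lowest of the 4 and just above background. The difference between sides was 0.29 in KO and 0.71 in WT cortex, or 1.22-fold and 1.64-fold, from 1 probe set. The KO difference minus the WT difference was -0.42, against an SD of 0.29 for the same quantity over the receptor probe sets, and it did not reach 1.5-fold.

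The other ligands did not reach 1.5-fold between sides. *Vcam1*, the ligand of VLA-4, had 3 probe sets above background on all arrays. The one with the highest mean read 8.48 in KO ipsilateral cortex and 8.31 in KO contralateral cortex, and 8.62 in WT ipsilateral cortex and 8.61 in WT contralateral cortex. All 3 read higher ipsilaterally in KO and in WT cortex, by 0.17 to 0.27 in KO and by 0.01 to 0.41 in WT cortex. The difference of 0.41 came from 1 probe set, which read 5.33 and 5.06 on the KO ipsilateral and contralateral arrays and 5.48 and 5.07 on the WT arrays. *Icam2*, which endothelial cells carry without stimulation, read 6.23 in KO ipsilateral and 6.12 in KO contralateral cortex, and 6.53 in WT ipsilateral and 6.36 in WT contralateral cortex. Its differences of 0.11 and 0.17 were smaller than the scatter of the receptor probe sets. *Sele*, which encodes the endothelial E-selectin, read 3.43 in KO ipsilateral and 3.59 in KO contralateral cortex, and 3.58 in WT ipsilateral and 3.07 in WT contralateral cortex. None of these was above background, so no fold is given and its level was not detectable here.

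The other genes of the leukocyte side stayed under 1.5-fold. *Selplg*, which encodes PSGL-1 and is made by leukocytes and microglia, read lower ipsilaterally in KO and in WT cortex, the only gene above background to do so by the probe set that stands for it. It read 8.44 in KO ipsilateral and 8.67 in KO contralateral cortex, and 8.47 in WT ipsilateral and 8.67 in WT contralateral cortex, differences of -0.23 and -0.20 that are about the size of the scatter. *Itgb1*, the beta subunit that VLA-4 shares with many integrins of other cells, had 2 of 6 probe sets above background. The higher read 7.60 in KO ipsilateral and 7.31 in KO contralateral cortex, and 7.56 in WT ipsilateral and 7.34 in WT contralateral cortex, and it differed by 0.29 and 0.22. The other differed by 0.14 and 0.02. *Itga4*, the alpha subunit of VLA-4, had 2 of 5 probe sets above background. One read 6.76 in KO ipsilateral and 6.60 in KO contralateral cortex, and 6.60 in WT ipsilateral and 6.76 in WT contralateral cortex. The other read 5.62 in KO ipsilateral and 5.65 in KO contralateral cortex, and 5.42 in WT ipsilateral and 5.95 in WT contralateral cortex, lower ipsilaterally in both genotypes. *Itgal*, the alpha subunit of LFA-1, had 2 probe sets between 4.03 and 4.69 on all arrays, neither above background.

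**Figure D2:**
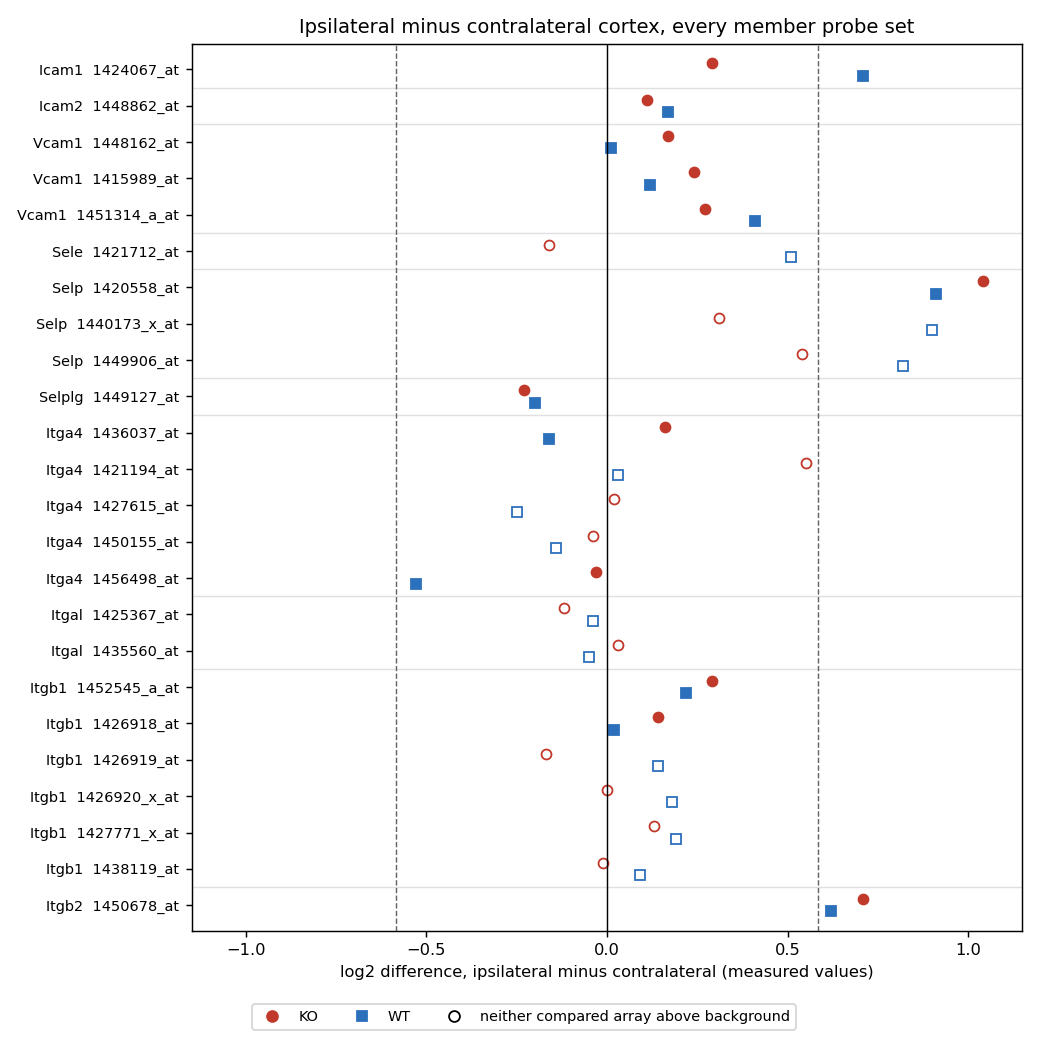
Log2 difference between ipsilateral and contralateral cortex (horizontal axis) for each of the 24 probe sets, with KO as red circles and WT as blue squares. Open symbols mark probe sets with neither compared array above background, and the dashed lines mark 1.5-fold. Filled symbols past the right line are *Selp* and *Itgb2* in both genotypes and *Icam1* in WT, and *Selp* is drawn at its measured 1.04 and 0.91.

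Several cell types had markers that were also higher ipsilaterally, while other markers of some of these lists were lower. The part of such markers in these differences was not tested. Of 14 brain endothelial markers 12 were above background on an array, with mean levels of 7.95 and 7.84 in KO ipsilateral and contralateral cortex and 8.09 and 7.94 in WT ipsilateral and contralateral cortex. Their median difference between sides was 0.12 in KO and 0.28 in WT cortex, and 0 of them reached 1.5-fold. In KO cortex 7 read higher and 5 lower ipsilaterally, and in WT cortex 8 and 4. *Tie1* was the measured endothelial marker not above background. Of 9 platelet markers 6 were above background, with medians of 0.01 in KO and 0.29 in WT cortex. Of these 3 read higher and 3 lower in KO cortex, and 4 and 2 in WT cortex. *Pf4*, a platelet chemokine, was at 0.27 in KO cortex and 0.69 in WT cortex, the one platelet marker past 1.5-fold.

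For the leukocyte genes, 6 of 12 neutrophil markers were above background on an array. Their mean levels were 6.07 and 5.27 in KO ipsilateral and contralateral cortex and 5.90 and 4.96 in WT ipsilateral and contralateral cortex. Some values in these means were not above background. The median difference between sides of those that entered was 0.41 in KO and 0.25 in WT cortex. *S100a8* and *S100a9*, which encode calcium-binding proteins abundant in neutrophils, were past 1.5-fold in KO and in WT cortex, while *Cxcr2*, *Camp*, *Mpo* and *Elane* were not above background on any array. Of 10 markers of monocytes and macrophages 6 were above background, with median differences of 0.27 in KO and 0.54 in WT cortex, and *Ccr2*, *Plac8* and *Chil3* were not. *Arg1*, an arginase of alternatively activated macrophages, was at least 0.88 higher in KO and at least 0.98 higher in WT cortex. *Lyve1*, a hyaluronan receptor of macrophages and lymph vessels, was at 0.23 in KO and 0.71 in WT cortex, and *F13a1*, a clotting factor subunit, at 0.52 and 0.63. All 8 measured microglial markers were above background, with medians of 0.00 in KO and -0.04 in WT cortex, and 0 of them past 1.5-fold. Of 12 markers of T and NK cells 4 were above background, with medians of 0.04 and 0.27, and *Cd8a*, a coreceptor of T cells, was at 0.02 in KO and 0.60 in WT cortex. Of the 5 *Cd8a* probe sets only the one that stood for the gene was above background. The others differed by -0.19 to 0.38 in WT cortex. Of 6 B cell markers only *Ighm* was above background, and it was at -0.71 in KO and -0.49 in WT cortex, past 1.5-fold in KO cortex. The other *Ighm* probe sets above background on all arrays differed less. In KO and WT cortex they were at 0.25 and 0.20, -0.01 and 0.05, 0.02 and -0.05, and -0.58 and -0.08. Of 9 markers of choroid plexus and ependyma 7 were above background, with medians of 0.69 in KO and 0.71 in WT cortex, and 3 were past 1.5-fold in KO and 4 in WT cortex. *Ttr*, which encodes the transport protein transthyretin of choroid plexus, was at 4.59 in KO and 5.35 in WT cortex. All 9 markers of meninges and fibroblasts were above background, with medians of 0.10 and 0.23, and the same 3 were past 1.5-fold in KO and in WT cortex. These were the matrix genes *Col3a1*, at 1.25 and 1.68, *Dcn*, at 0.97 and 0.65, and *Lum*, at 0.94 and 0.87. Of 6 astrocyte markers *Gfap*, an intermediate filament gene of reactive astrocytes, was the one past 1.5-fold, at 1.83 in KO and 2.13 in WT cortex.

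The second question was how the genotypes differed on each side. None of the members was past 1.5-fold in KO against WT cortex on either side. On the ipsilateral side 0 of 8 members that entered were higher or lower, where 0.0898% of 13363 genes were higher and 0.576% lower. On the contralateral side it was 0 of 7, where 0.227% of 13207 genes were higher and 0.159% lower. By probe set it was 0 of 12 ipsilaterally, where 0.215% of all were higher and 0.498% lower, and 0 of 11 contralaterally, where 0.362% were higher and 0.323% lower. The member medians were -0.01 on the ipsilateral and -0.16 on the contralateral side, and -0.01 over all genes that entered on both sides.

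The largest difference between genotypes among members above background was that of *Icam1* on the contralateral side, 5.43 in KO and 4.94 in WT cortex, or 0.49 and 1.40-fold. Of all genes that entered on that side, 0.447% had a difference as large or larger. On the ipsilateral side *Icam1* differed by 0.07. Some leukocyte markers stood higher in KO contralateral cortex as well, and their part in the *Icam1* difference was not tested. *S100a9* read 5.39 in KO and 4.28 in WT contralateral cortex. The WT value was not above background, so the difference is at least 0.61. The 4 markers of T and NK cells above background were all higher there, with a median of 0.32. Of these *Cd3d* was not above background in WT contralateral cortex, at 4.70. Of the 5 *Cd8a* probe sets only the one that stood for the gene was above background. The neutrophil markers that entered had a median of 0.08, with 3 higher and 2 lower. Markers of monocytes and macrophages had a median of 0.05, and the 12 endothelial markers had a median of -0.07 on that side. On the ipsilateral side the neutrophil markers that entered had a median of 0.10, with 3 higher and 3 lower in KO cortex. Of these *Ngp* was past 1.5-fold as measured, at 4.90 in KO and 4.25 in WT ipsilateral cortex. The WT value was not above background, so the difference is at least 0.12, a bound that does not reach 1.5-fold. *Icam1* and *P4htm* both lie on chromosome 9, with 1833 annotated genes between them.

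*Icam2*, *Vcam1* and *Itgb2* read lower in KO cortex on both sides. Of all genes that entered, 50.8% read lower in KO cortex on the ipsilateral and 53.1% on the contralateral side. The SD over the receptor probe sets was 0.20 on the ipsilateral and 0.18 on the contralateral side. *Icam2* was at -0.30 on the ipsilateral and -0.24 on the contralateral side, and both KO values were below both WT values. *Vcam1* was at -0.14 on the ipsilateral and -0.30 on the contralateral side with its highest probe set, and its 3 probe sets all read lower in KO cortex on both sides, with the smallest difference at -0.01. *Itgb2* was at -0.20 on the ipsilateral and -0.29 on the contralateral side. *Itgb1* was at 0.04 and -0.03 with its higher probe set, and at -0.19 and -0.31 with the other.

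*Selp* differed by 0.01 on the ipsilateral side and could not be compared on the contralateral side, where neither genotype was above background. *Selplg* differed by -0.03 and 0.00. *Itga4* was at 0.16 on the ipsilateral and -0.16 on the contralateral side, and its other probe set above background was at 0.20 and -0.30. The difference of differences reached 1.5-fold for 0 of 8 members, where 0.528% of 13448 genes were higher and 1.35% lower by that rule. These comparisons share arrays with those between the sides.

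**Figure D3:**
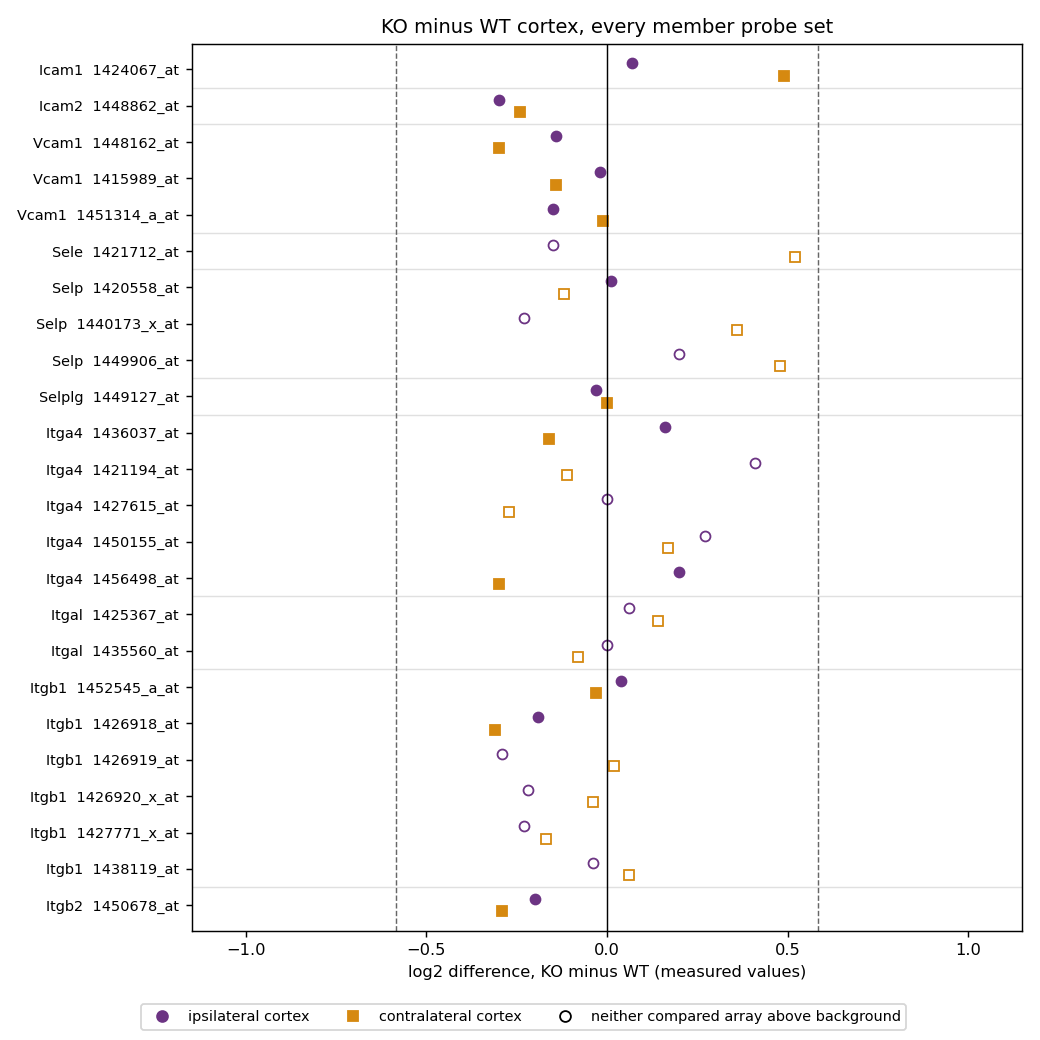
Log2 difference between KO and WT cortex (horizontal axis) for each of the 24 probe sets, with ipsilateral cortex as purple circles and contralateral cortex as orange squares. Open symbols mark probe sets with neither compared array above background, and the dashed lines mark 1.5-fold. No filled symbol passes a line, and the filled symbol nearest to one is contralateral *Icam1* at 0.49.

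Genes that work beside the members were described from lists written out by role. Among 10 other selectins and selectin ligands, 7 were above background. *Cd44*, a hyaluronan receptor that can also bind selectins, was the one past 1.5-fold between sides. It read 8.10 and 6.02 in KO ipsilateral and contralateral cortex and 8.49 and 6.03 in WT ipsilateral and contralateral cortex, differences of 2.08 and 2.46, and its second probe set above background differed by 1.98 and 2.19. *Emcn*, an endothelial sialomucin, was lower past 1.5-fold in KO contralateral cortex, at 5.58 against 6.36 in WT contralateral cortex, or -0.78 from its single probe set. On the ipsilateral side *Emcn* read 6.04 in KO and 6.16 in WT cortex, a difference of -0.12. *Cd34*, a sialomucin of endothelial and progenitor cells, was at -0.19 in KO and -0.53 in WT cortex between sides. Of 12 enzymes that build selectin ligands 9 were above background and 0 were past 1.5-fold in any of the 4 comparisons. *Fut7*, a fucosyltransferase of leukocytes, was not above background.

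Integrin genes beyond the members stayed under the limit. Of 16 other subunits 13 were above background and 0 were past 1.5-fold in any of the 4 comparisons. *Itgam*, which encodes the alpha subunit of Mac-1, was the nearest, at 0.56 in KO and 0.12 in WT cortex between sides. *Fermt3*, which encodes kindlin-3, an activator of integrins in blood cells, was the only one of 12 activators and adaptors past the limit, at 0.61 in KO and 0.74 in WT cortex. Another *Fermt3* probe set above background on all arrays was at 0.16 and -0.08. Of 9 other ligands of the immunoglobulin family or of integrins *Tnc*, an extracellular matrix protein, was at 0.44 in KO cortex and passed it in WT cortex, at 0.91.

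Junction genes of the transmigration step did not reach 1.5-fold in any of the 4 comparisons, with 13 of 15 above background. Their median between sides was 0.18 in KO and 0.17 in WT cortex. *Cdh5*, the cadherin of endothelial junctions, was at 0.46 and 0.48, *Pecam1*, which endothelial cells and leukocytes share, at 0.24 and 0.40, and *Ackr1*, a chemokine-binding receptor of venules, at 0.24 and 0.13. Among 13 inducers of endothelial adhesion molecules *Tnf* and *Il1a* were not above background and 10 genes were. *Tnfrsf1a*, a receptor of tumor necrosis factor, was higher by 0.86 in KO and by 1.06 in WT cortex. *Il1r1*, the interleukin-1 receptor, was past the limit in KO cortex, at 0.63, and was at 0.20 in WT cortex, and *Relb*, an NF-κB subunit, was at 0.24 in KO and past it in WT cortex, at 0.59. Whether those last 2 differed between genotypes was not tested.

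**Figure D4:**
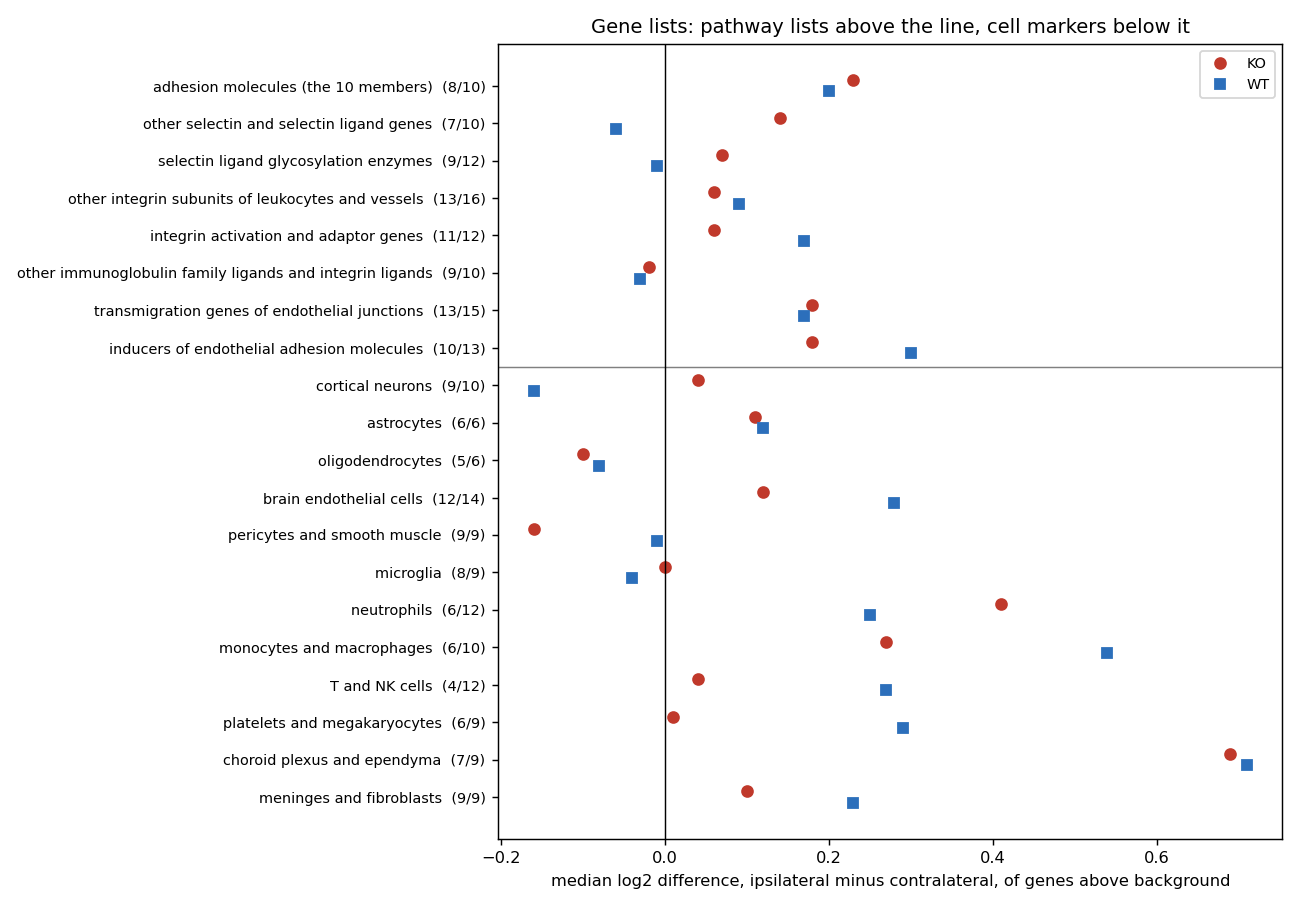
Median log2 difference between ipsilateral and contralateral cortex (horizontal axis) of the genes of each list that were above background, with KO as red circles and WT as blue squares. Brackets give the genes above background on an array out of those listed, and lists with fewer than 3 genes in the KO comparison are left out. The adhesion molecules sit at 0.23 and 0.20 and the choroid plexus list, at 0.69 and 0.71, sits farthest to the right.

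Genes whose pattern over the 4 arrays was most like that of a member were found by the root mean square difference of the values after each gene's own mean was subtracted. This was done among 13448 genes above background for the 3 members that spanned at least 1.5-fold. Nearest to *Selp* were *Msn*, a linker of membrane and actin, at 0.040, *Dab2*, an endocytic adaptor, at 0.044, and *Psmb8*, an immunoproteasome subunit, at 0.060. For *Selp* the match used the contralateral values as measured, which were not above background. Nearest to *Itgb2* were *Pros1*, which encodes the anticoagulant protein S, at 0.038, *Hsd3b7*, an enzyme of bile acid synthesis, at 0.040, and *S1pr3*, a sphingosine 1-phosphate receptor, at 0.059. Nearest to *Icam1* were *Cxcl16*, a membrane-bound chemokine, at 0.038, *Ltbr*, the lymphotoxin beta receptor, at 0.053, and *Flnc*, a filamin, at 0.067. *Cxcl16* read 7.08 and 6.81 in KO ipsilateral and contralateral cortex and 7.03 and 6.40 in WT ipsilateral and contralateral cortex. It was chosen by these same values, so that it shares the order of *Icam1* is no separate finding. Within 0.1 of their profile lay 22 genes for *Selp*, 37 for *Itgb2* and 23 for *Icam1*. Since 4 arrays give few values to match, this likeness is a description only.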

How the data were processed

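RNA of 4 mice per condition was hybridized to Affymetrix GeneChip mouse genome arrays. The authors normalized the signals with GenePattern and deposited log2 values per probe set, and RMA is named in the submitters' processing notes. These versions were not given in the sources used here. Logarithms were taken to base 2 because of the range of 2.51 to 14.9. RMA takes out a shift that all genes of 1 array have in common. The value table held 0 unused columns. Of 45101 probe sets 34958 name 1 gene, 932 name several and were left out, and 9211 are unnamed here. Symbols of 34754 were looked up by Entrez ID in RefSeq for GRCm38.p6. A value not above background was set to it and the difference given as a bound. Named genes are all members, *P4htm*, list genes past 1.5-fold in a comparison (at most 4 per list and comparison), and the 3 nearest profiles, and other markers of choroid plexus, oligodendrocytes and red blood cells are left out. *Cd34*, *Fut7*, *Itgam*, *Cdh5*, *Pecam1*, *Ackr1*, and the markers given as not above background were named outside this rule, after their values were seen, as were the promoter motifs. Members and lists were chosen with earlier results of these data known. Genes of the lists without a single-gene probe set were not analysed here. The counting step was tested on simulated data. Alternatives were other probe set choices, detection limits, cyclic loess, median centring and a 2-fold rule. Python 3.11.15, numpy 2.4.6, pandas 2.3.3, matplotlib 3.10.9, R 4.3.3 and limma 3.58.1 were used.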

Additional observations from a re-analysis of the deposited data

Results flagged for a closer look

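*Itga4* differed between sides by 0.16 in KO and by -0.16 in WT cortex, and between KO and WT by 0.16 on the ipsilateral and -0.16 on the contralateral side. It was singled out because the arrays moved in opposite directions, and the difference of differences is 0.32 either way, against an SD of 0.29 over receptor probe sets. Its other probe set above background was lower ipsilaterally in both genotypes, by -0.03 in KO and -0.53 in WT cortex. Between genotypes that probe set was at 0.20 on the ipsilateral and -0.30 on the contralateral side. *Itgb1* differed between KO and WT by 0.04 on the ipsilateral and -0.03 on the contralateral side, a difference of 0.07, and with the mean over its probe sets the ipsilateral value was -0.15, so that the directions were no longer opposite. With 1 array per condition neither difference was tested.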

How the results depend on the processing

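The count of members past 1.5-fold on the ipsilateral side was 2 in KO and 3 in WT cortex. In KO cortex it was 1 (*Itgb2*) with the mean over the probe sets of a gene, 0 with background at the 99th percentile, 6.59, and 1 (*Selp*) with a 2-fold threshold, which *Selp* passes as measured but not by its bound of at least 0.71. In WT cortex it was 2 (*Icam1* and *Itgb2*) with the mean, 1 (*Itgb2*) with the higher background and 0 at 2-fold. Counting each probe set, no detection filter, median centring and cyclic loess left 2 and 3. Between genotypes the count was 0 under every alternative. For the difference of differences it was 0 with the mean, median centring and cyclic loess, and the other alternatives were not run for it. *Sele*, not above background on any array, had a difference of differences of -0.67 and was not counted. Of 150 recomputed single differences 0 of those called changed sign, and 4 moved by at least 1 SD of the receptor probe sets, all with the mean over probe sets. With that mean 5 differences not past 1.5-fold turned sign. *Selp* in KO against WT was -0.01 ipsilaterally and 0.24 contralaterally, with a difference of differences of -0.25, and *Itgb1* was -0.15 ipsilaterally, with a difference of differences of -0.08. No paired analysis was possible because each genotype has 1 pair of arrays, and with 1 array per condition none could be left out. Members near background, such as *Selp* and WT contralateral *Icam1*, are measured least firmly.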
